A study of Mus musculus with 4 samples.

Results

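Nuclear receptors are transcription factors that carry a zinc finger domain for DNA and, in most members, a pocket for a small lipophilic ligand such as a steroid, thyroid hormone, a retinoid, vitamin D or a bile acid. Many bind the half-site AGGTCA or a close variant, as pairs with a retinoid X receptor (RXR), as pairs of one steroid receptor released from chaperones, or alone. In the thymus the family is best known for the glucocorticoid receptor, whose ligand kills immature thymocytes, and for the NR4A receptors, which antigen receptor signals induce. Accessible chromatin was described here at 39 genes of this family, out of 21631 protein-coding genes compared. The members were taken by name, and a region belonged to a member when it overlapped the RefSeq gene body or the 10 kb on either side. All 39 matched the gene table. Other genes of the family were not analysed here.

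Chromatin accessibility was measured by ATAC-seq, in which the Tn5 transposase cuts and tags open DNA, in primary cells of untreated mice. The groups were DN3 thymocytes lacking Scd1, DN3 thymocytes of littermate controls, splenic naive CD4 T cells lacking Scd1, and splenic naive CD4 T cells of littermate controls. Scd1 encodes a stearoyl-CoA desaturase, an enzyme that makes monounsaturated fatty acids. DN3 thymocytes are early T cell precursors sorted as lineage-negative cells without CD4, CD8 or CD44 and with CD25, and naive CD4 T cells are mature cells that have not met antigen, taken with magnetic beads. The labels give neither the Scd1 allele, the age nor the number of animals behind a library, and the controls are titled HZ, which the labels do not explain. Each group was 1 library, so no test was run, no p-value is given, and genotypes and cell types are compared by presence and size alone. In such bulk samples, a region open in fewer cells and one less open in each cell cannot be told apart.

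The authors' lists held 76450 and 76828 peaks in Scd1-deficient and control DN3 cells, and 51309 and 46585 in Scd1-deficient and control naive cells. A region is a peak of such a list. Its fold is the pileup at the summit over the local background, and its −log10 q ranks its evidence, and both are the authors' values and belong to the region within its own list. Read depth is unknown. The lowest background pileup recovered from these values was 4.47 and 4.72 fragments in the Scd1-deficient and control DN3 libraries, and 3.65 and 5.12 in the Scd1-deficient and control naive libraries. All 8 DN3 marker genes had a region within 1 kb of a gene end in both DN3 lists, and Ptcra, Dntt and Rag2 had none there in the naive lists. Rag1 had one with a −log10 q of 77.9 and 114 in Scd1-deficient and control DN3 cells and 13.1 in Scd1-deficient naive cells, and none in control naive cells. Il2ra, Notch1 and Notch3 had higher values in the naive lists, as for Il2ra 68.4 and 50.6 in Scd1-deficient and control DN3 cells against 117 and 173 in Scd1-deficient and control naive cells. All 8 naive CD4 markers and all 8 pan-T markers had one in all 4 lists, so presence at their gene ends does not separate the cell types. The number of regions in gene body and 10 kb on either side did differ. Summed over the naive CD4 markers it was 53 in each DN3 list and 76 in each naive list. Over the pan-T markers it was 79 and 71 in Scd1-deficient and control DN3 cells, and 90 and 88 in Scd1-deficient and control naive cells. Of markers of other lineages, a gene-end region was called at 3 of 7 B cell genes in each DN3 list and 4 of 7 in each naive list, with none at Ms4a1. Ebf1 was among those called, with 135 and 141 in Scd1-deficient and control DN3 cells against 36.7 and 20.4 in Scd1-deficient and control naive cells. Cd79b was also higher in DN3 cells, with 20.6 and 30.1 against 7.28 and 6.13. Cd79a went the other way, with 53.8 and 54.5 in Scd1-deficient and control naive cells. In DN3 cells it had 3.36 in the Scd1-deficient list and none in the control. Cd22 was called in the naive lists alone, with 2.65 and 7.64, and Pax5 in control DN3 cells alone, with 1.94. The counts for myeloid genes were 3 of 8 in every list, with none at Csf1r or Adgre1 but Cebpa and Cd14 called in all. The remaining gene differed by cell type. It was Lyz2 in Scd1-deficient and control DN3 cells, with 32.6 and 28.5. In Scd1-deficient and control naive cells it was Itgam, with 33.4 and 42.3. Stromal and epithelial genes gave 5 of 8 in each DN3 list and 2 of 8 in each naive list. NK cell genes gave 4 of 6 in each DN3 list and 3 of 6 in each naive list, erythroid genes 3 of 6 in every list, and CD8 T cell genes 4 of 4 in each DN3 list and 3 of 4 in each naive list, Cd8a being called in DN3 cells alone. What part such cells had in the results was not tested.

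Start sites were available for 35 members in the RefSeq promoter table of GRCm38.p6, the assembly also called mm10, as 250 bases before to 50 after each start. Thra, Hnf4g, Nr3c1 and Nr5a1 are not in it. The sequences of the 5 members whose start lay under a region in both DN3 lists and in neither naive list are shown first, because these starts were called in 1 cell type alone. They lie at chr1:167598112-167598411 on the plus strand (Rxrg), chr19:19111147-19111446 on the minus strand (Rorb), chr14:16575427-16575726 on the minus strand (Rarb), chr10:42583541-42583840 on the minus strand (Nr2e1) and chr12:86421394-86421693 on the plus strand (Esrrb). Each is printed 5′ to 3′ in the direction of the gene. Capitals mark AGGTCA, TGACGTCA and GGGCGG on either strand.
Rxrg: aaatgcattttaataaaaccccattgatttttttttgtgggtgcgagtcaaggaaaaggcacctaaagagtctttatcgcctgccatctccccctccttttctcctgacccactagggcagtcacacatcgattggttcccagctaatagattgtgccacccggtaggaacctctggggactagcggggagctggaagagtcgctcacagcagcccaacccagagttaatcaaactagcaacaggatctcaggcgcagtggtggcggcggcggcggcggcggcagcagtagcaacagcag
Rorb: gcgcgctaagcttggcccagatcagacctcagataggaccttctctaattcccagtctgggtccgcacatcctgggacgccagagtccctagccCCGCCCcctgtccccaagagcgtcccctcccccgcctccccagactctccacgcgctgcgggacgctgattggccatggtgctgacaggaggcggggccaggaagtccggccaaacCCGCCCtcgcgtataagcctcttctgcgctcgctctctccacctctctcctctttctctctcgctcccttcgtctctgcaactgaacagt
Rarb: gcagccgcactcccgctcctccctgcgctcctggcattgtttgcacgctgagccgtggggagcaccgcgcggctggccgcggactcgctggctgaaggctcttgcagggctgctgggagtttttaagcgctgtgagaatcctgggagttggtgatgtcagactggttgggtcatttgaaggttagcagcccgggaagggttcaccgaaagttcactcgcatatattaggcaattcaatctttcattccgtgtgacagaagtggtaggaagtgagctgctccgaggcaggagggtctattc
Nr2e1: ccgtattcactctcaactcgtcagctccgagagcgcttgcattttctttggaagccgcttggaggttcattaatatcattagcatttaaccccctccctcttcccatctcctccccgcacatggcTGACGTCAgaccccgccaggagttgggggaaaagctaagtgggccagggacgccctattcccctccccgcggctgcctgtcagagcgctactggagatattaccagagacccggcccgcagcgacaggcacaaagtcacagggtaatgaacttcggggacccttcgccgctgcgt
Esrrb: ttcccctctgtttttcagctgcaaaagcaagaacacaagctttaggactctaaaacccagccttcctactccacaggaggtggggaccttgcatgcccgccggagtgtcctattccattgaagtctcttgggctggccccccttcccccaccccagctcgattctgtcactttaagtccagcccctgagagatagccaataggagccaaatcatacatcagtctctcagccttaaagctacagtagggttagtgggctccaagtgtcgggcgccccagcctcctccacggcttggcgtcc

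For comparison, 3 starts under a region in all 4 lists are shown in the same way. They lie at chr14:18239057-18239356 on the minus strand (Nr1d2), chr14:17660710-17661009 on the plus strand (Thrb) and chr15:97908247-97908546 on the minus strand (Vdr).
Nr1d2: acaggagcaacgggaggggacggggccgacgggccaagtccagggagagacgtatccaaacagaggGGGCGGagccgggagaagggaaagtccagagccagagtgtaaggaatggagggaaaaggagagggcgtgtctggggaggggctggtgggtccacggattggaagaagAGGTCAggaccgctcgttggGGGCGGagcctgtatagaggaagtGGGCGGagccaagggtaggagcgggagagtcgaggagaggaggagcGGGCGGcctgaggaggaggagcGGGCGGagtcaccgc
Thrb: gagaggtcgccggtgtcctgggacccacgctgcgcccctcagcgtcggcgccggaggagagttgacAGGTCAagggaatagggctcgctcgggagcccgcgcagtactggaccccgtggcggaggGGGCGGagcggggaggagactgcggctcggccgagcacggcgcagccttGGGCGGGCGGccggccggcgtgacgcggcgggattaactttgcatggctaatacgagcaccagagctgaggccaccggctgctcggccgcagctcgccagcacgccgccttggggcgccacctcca
Vdr: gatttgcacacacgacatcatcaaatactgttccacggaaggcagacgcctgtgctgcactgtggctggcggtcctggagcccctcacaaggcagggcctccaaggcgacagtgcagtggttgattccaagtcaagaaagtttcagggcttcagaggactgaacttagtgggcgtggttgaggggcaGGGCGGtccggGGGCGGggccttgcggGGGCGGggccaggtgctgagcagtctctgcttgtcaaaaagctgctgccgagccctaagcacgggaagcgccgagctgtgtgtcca

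The GC box GGGCGG stood in the Rorb promoter among the DN3-only starts and in all 3 starts open in every list. It was present in 23 of 53 member promoters, against 46.7% of 21045 promoters of all genes. The half-site AGGTCA stood in 10 of the 53, against 14.6% of all promoters, and among the sequences shown in that of Nr1d2, 77 bases before the start, and that of Thrb, 184 bases before it. TGACGTCA, the cyclic AMP response element, was found in the Nr2e1 promoter 125 bases before the start, and in 1 other member promoter, that of Nr6a1, against 2.26% of all promoters. CpG dinucleotides numbered 13, 20, 17, 19 and 7 in the Rxrg, Rorb, Rarb, Nr2e1 and Esrrb promoters, and 20, 37 and 15 in those of Nr1d2, Thrb and Vdr. Member promoters under a region in both DN3 lists alone had a median of 15 CpG over 6 promoters. The median was 20 over the 23 member promoters open in all 4 lists and 6 over the 24 open in none. The same 3 medians over all protein-coding genes were 16, 22 and 3. These matches are letters in a window and not sites of binding.

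A region within 1 kb of either end of the gene was called at 29 members in Scd1-deficient DN3 cells, 30 in control DN3 cells, 23 in Scd1-deficient naive cells and 22 in control naive cells. Over all protein-coding genes the shares were 66.5%, 66.7%, 58.6% and 57% in the same order. In all 4 lists it was called at 22 members, or 56.4%, against 56.1% of all genes. None was called in any list at 9 members, against 31.8% of all genes. These were Rarb, the xenobiotic receptor Nr1i3, the hepatocyte factors Hnf4a and Hnf4g, Nr0b1, Nr5a2, the progesterone receptor Pgr and the estrogen-related receptors Esrrb and Esrrg. The members' shares were 74.4% and 76.9% in Scd1-deficient and control DN3 cells, above the share of all genes, and 59.0% and 56.4% in Scd1-deficient and control naive cells, near it.

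**Figure D1:**
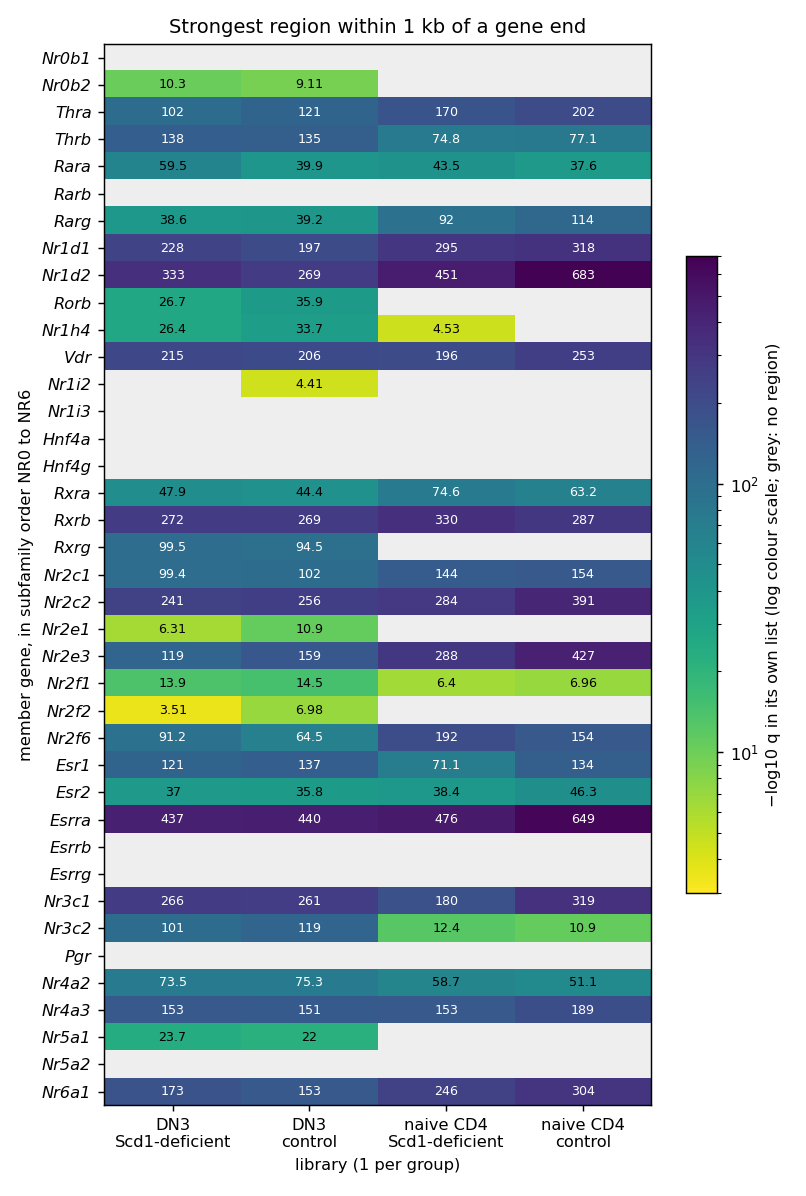
Strongest region within 1 kb of a gene end for each of the 39 members (rows, in subfamily order) in each of the 4 libraries (columns); the cell gives the −log10 q in its own list, coloured on a log scale, and grey means that no region was called. Nr0b2, Rorb, Rxrg, Nr2e1, Nr2f2 and Nr5a1 have values in both DN3 columns and none in either naive column.

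By mean rank of −log10 q over the 4 lists, the strongest gene-end regions were those of Esrra, Nr1d2, Rxrb, Nr2c2 and Nr1d1. At Esrra, the estrogen-related receptor of mitochondrial energy metabolism, −log10 q was 437 and 440 in Scd1-deficient and control DN3 cells and 476 and 649 in Scd1-deficient and control naive cells. Nr1d2, a heme-binding REV-ERB repressor of the circadian clock, had 333 and 269 in the DN3 lists and 451 and 683 in the naive lists. Its paralog Nr1d1 had 228 and 197 in the DN3 lists and 295 and 318 in the naive lists. All these genes were open in every library, and the naive values were the higher ones, in lists whose median −log10 q over all regions was also higher, at 41.1 and 53.5 in Scd1-deficient and control naive cells against 30.5 and 33.8 in the DN3 cells. Rxrb, a partner of many other receptors, had 272 and 269 in the DN3 lists and 330 and 287 in the naive lists. Nr2c2, a testicular orphan receptor, had 241 and 256 in the DN3 lists and 284 and 391 in the naive lists. The Rxrb region also covers the start of Slc39a7, and the Esrra regions lie within 1 kb of the ends of Prdx5, Trmt112 and Catsperz, so that these signals cannot be given to 1 gene.

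A gene-end region in both DN3 lists and in neither naive list was found at 6 of 39 members, or 15.4%, against 7.57% of all genes. The reverse was found at 0 members, against 0.347%. At Rxrg, the gamma form of RXR, the region over the start had a −log10 q of 99.5 and 94.5 in Scd1-deficient and control DN3 cells, with a fold of 12.8 in each. It held 134 fragments at the summit in the Scd1-deficient library (exact Poisson 95% interval 112 to 159) and 127 in the control (106 to 151), intervals that cover counting error only. The whole Rxrg window followed it, since all 3 of its joint regions, meaning regions merged over the 4 lists, were called in both DN3 lists and in no naive list.

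The other 5 were weaker. Rorb, an orphan receptor known from retina and brain, had a region over its start with 26.7 and 35.9 in Scd1-deficient and control DN3 cells, and this was its only region in any list. Nr5a1, the steroidogenic factor of adrenal and gonad, had 23.7 and 22 in the DN3 lists at its lower-coordinate end. Nr0b2, a repressor without a DNA-binding domain that limits bile acid synthesis in liver, had 10.3 and 9.11. Nr2e1, the TLX receptor of neural stem cells, had 6.31 and 10.9. Nr2f2, a COUP-TF receptor of vessel and organ development, had 3.51 and 6.98 at its downstream end. Of all regions, 20.4% in the Scd1-deficient and 22.8% in the control DN3 list had a higher −log10 q than the Rxrg region, and 95.4% and 88.3% had a higher one than the Nr2f2 region.

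List length bears on these counts. With each list kept to its 46576 strongest regions, the length of the control naive list, 3 members had a DN3-only gene-end region, Rxrg, Rorb and the bile acid receptor Nr1h4, against 3.85% of all genes. At the same length, 1 member, the COUP-TF receptor Nr2f1, had a naive-only one, against 1.45%. The cut fell at unlike strengths. The lowest −log10 q kept was 20.2 and 22.9 in Scd1-deficient and control DN3 cells. In Scd1-deficient and control naive cells it was 5.91 and 1.32. In the full lists Nr2f1 had a gene-end region in all 4, with 13.9 and 14.5 in DN3 cells and 6.40 and 6.96 in naive cells. The cut also removed the Nr1h4 gene-end region of Scd1-deficient naive cells, of 4.53. A region over the annotated start was called at 24 of 35 members in each DN3 list, against 63% and 63.3% of genes in Scd1-deficient and control DN3 cells. It was called at 19 in each naive list, against 56.7% and 55.6% in Scd1-deficient and control naive cells, and at 19 in all 4 lists, against 54.8%. The start in place of either gene end gave 5 DN3-only members of 35, against 5.99%, and 0 naive-only members, against 0.272%. Besides Rxrg, Rorb and Nr2e1 these were Rarb and Esrrb, whose starts lie inside the annotated gene. At the Rarb start, −log10 q was 15.3 and 18.1 in Scd1-deficient and control DN3 cells, and at the Esrrb start 12.7 and 14.6.

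Where a gene-end region was called in all 4 lists, its fold differed little between cell types. None of the 22 such members reached a 2-fold difference in the same direction in both genotypes, against 0.676% of genes higher in DN3 and 0.462% lower in DN3. The fold was higher in DN3 than in naive cells in both genotypes at 7 members, against 26.4% of genes, and lower at 12, against 47.4%. The median ratio of DN3 to naive fold was 0.906 in Scd1-deficient and 0.912 in control cells over the members, and 0.936 and 0.989 over all genes. The mineralocorticoid receptor Nr3c2 had the highest ratio in control cells, with a fold of 5.80 and 5.93 in Scd1-deficient and control DN3 cells against 4.25 and 3.70 in Scd1-deficient and control naive cells. Its −log10 q at that region was 101 and 119 in DN3 cells and 12.4 and 10.9 in naive cells. At the region over the start given in the RefSeq promoter table, which lies inside the gene, the order of fold was the other way. It was 7.29 and 7.27 in Scd1-deficient and control DN3 cells against 8.26 and 7.55 in Scd1-deficient and control naive cells. The order of −log10 q was not, with 152 and 169 in Scd1-deficient and control DN3 cells against 43.5 and 44.1 in naive cells. Nr2f6, a COUP-TF-related orphan receptor, had the lowest ratio, with a fold of 7.38 and 5.85 in DN3 cells and 11.9 and 10.2 in naive cells.

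At 2 members the strongest region was not the same place in every list. Nr2e3, the photoreceptor receptor, counts among the 7, but its strongest region was the one near the upstream end in DN3 cells and the one at the downstream end in naive cells. At the upstream region itself, the fold was 15.5 and 16.4 in Scd1-deficient and control DN3 cells against 19.7 and 18.1 in Scd1-deficient and control naive cells. Esrra counts among neither group, because in Scd1-deficient naive cells its strongest region lay at the other end. At its start region, the fold was 10.7 and 10.6 in DN3 cells and 10.3 and 10.1 in naive cells.

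**Figure D2:**
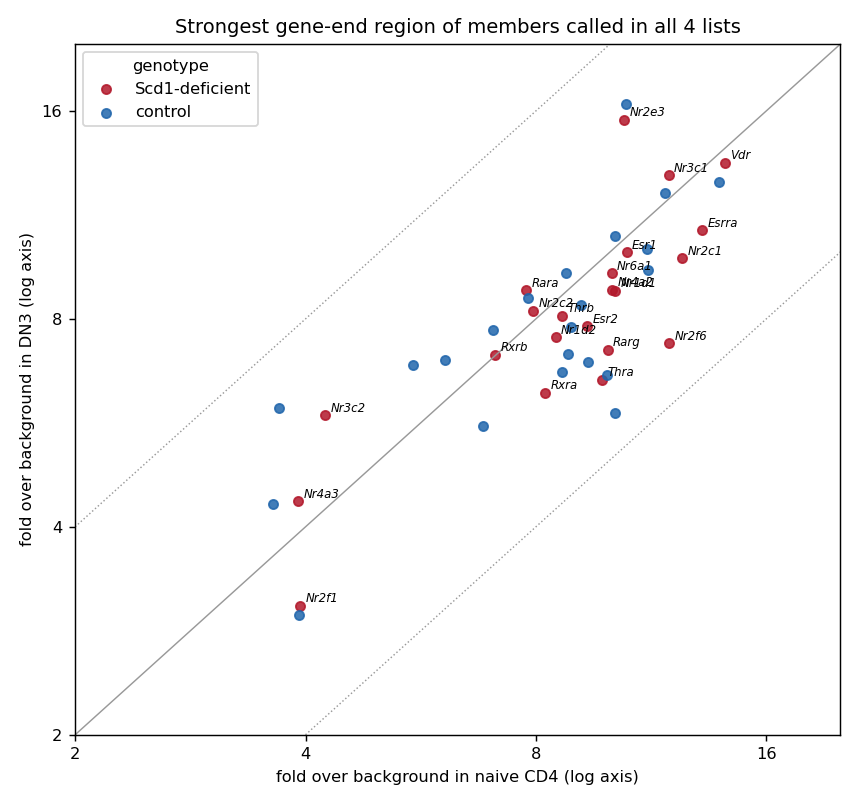
Fold over background of the strongest gene-end region in naive CD4 cells (horizontal, log axis) and in DN3 cells (vertical, log axis) for the 22 members called in all 4 lists; each member has 1 point per genotype, the name stands at the Scd1-deficient point, the solid line marks equality and the dotted lines a 2-fold difference. More points lie under the solid line than over it, and no member is past the same dotted line in both genotypes.

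Away from gene ends the cell types differed more. A region in the gene body away from both ends was called at 27 and 29 members in Scd1-deficient and control DN3 cells, and at 17 and 15 in Scd1-deficient and control naive cells. The shares of all genes were 44.2%, 44.3%, 34.6% and 32.5% in the same order, and the members are longer genes, with a median length of 47.1 kb against 17.3 kb. A body region in both DN3 lists and in neither naive list was found at 10 members, against 9.33% of all genes, and the reverse at 0, against 0.841%. The 10 were Esr2, Esrrb, Nr2c1, Nr2e1, Nr2f1, Nr2f2, Nr5a1, Pgr, Rxrg and Vdr. The rule asked for a body region in each DN3 list and not for the same one. At Esr2 they lay at different places, each without a counterpart in the other genotype. Their −log10 q was 4.71 in Scd1-deficient and 27.5 in control DN3 cells. At Pgr, the progesterone receptor, 1 body region with a −log10 q of 53.0 and 69.2 in Scd1-deficient and control DN3 cells carried the call. At equal list length 6 members had a DN3-only body region, against 4.82%.

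Summed over the members, 215 and 226 regions were called in Scd1-deficient and control DN3 cells, and 113 and 97 in Scd1-deficient and control naive cells. Windows of neighbouring members share a few regions, and counted once they were 211, 223, 111 and 96. The ratio of DN3 to naive regions was 1.90 in Scd1-deficient and 2.33 in control cells, against 1.39 and 1.53 over all genes. At equal list length it was 1.25 in each genotype, against 0.992 and 0.995 over all genes. DN3 cells had more regions than naive cells in both genotypes at 30 members, against 40.4% of genes, and fewer at 0, against 3.96%. At equal length more were called in DN3 cells at 21 members, against 17%, and fewer at 6, against 14.7%. Those 6 were Esrra, Nr2f6, Nr3c1, Rara, Rarg and Rxrb. None of these counts was corrected for gene length, and the members are longer genes, with a median of 47.1 kb against 17.3 kb.

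**Figure D3:**
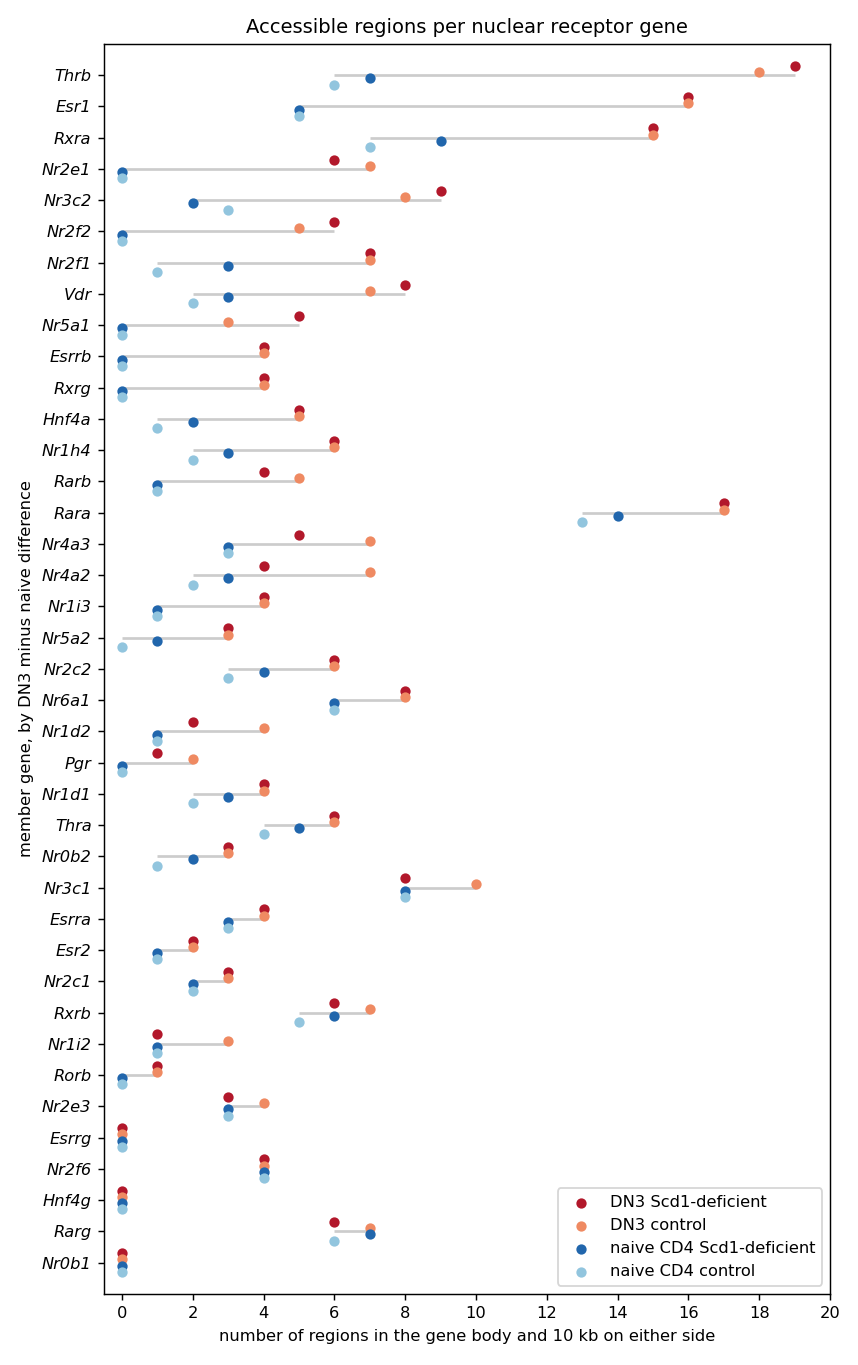
Number of regions in the gene body and 10 kb on either side (horizontal axis) for each member (vertical axis, ordered by the difference between DN3 and naive cells averaged over the genotypes), with 1 point per library and a grey line over their range. Thrb, Esr1 and Rxra stand at the top with 19, 16 and 15 regions in Scd1-deficient DN3 cells, and Nr0b1, Esrrg and Hnf4g have 0 in every library.

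At 15 of 39 members, DN3 cells had at least 2 times as many regions and at least 2 more in both genotypes, against 13.6% of genes, and the reverse held at 0, against 0.379%. These shares too were not corrected for the greater length of the members. At equal list length 4 members met the rule, Nr1h4, Nr5a1, Rxrg and the vitamin D receptor Vdr, against 4.13%. The largest difference was at Thrb, the beta thyroid hormone receptor, with 19 and 18 regions in Scd1-deficient and control DN3 cells against 7 and 6 in Scd1-deficient and control naive cells. Esr1, estrogen receptor alpha, had 16 regions in each DN3 list and 5 in each naive list. Rxra, the alpha RXR, had 15 in each DN3 list against 9 and 7 in Scd1-deficient and control naive cells, which is a difference of under 2 times in the Scd1-deficient pair. Nr3c2 had 9 and 8 in DN3 cells against 2 and 3 in naive cells. Nr2e1 and Nr2f2 had 6 and 7, and 6 and 5, in Scd1-deficient and control DN3 cells, against 0 in every naive list. No region at all was called in any list at Nr0b1, Esrrg and Hnf4g, or 3 members, against 20.1% of genes. At least 1 region was called at 36 members in each DN3 list, against 78.9% and 79.1% of genes in Scd1-deficient and control DN3 cells, and at 29 and 28 members in Scd1-deficient and control naive cells, against 71.8% and 70.3%.

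The 247 joint regions of the members show where the difference lay. In all 4 lists 88 were called, or 35.6%, against 41.5% of all 90270 joint regions. Both DN3 lists and neither naive list held 89, or 36.0%, against 28.3%, and both naive lists and neither DN3 list held 5, or 2.02%, against 5.11%. Of the 57 that lay within 1 kb of the end of any gene, 7 were DN3-only, or 12.3%, against 15.1%. Of the 190 elsewhere, 82 were DN3-only, or 43.2%, against 31.2%. At equal length, 32 of 152 joint regions were DN3-only, against 16.1%, and 12 naive-only, against 14.8%.

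**Figure D4:**
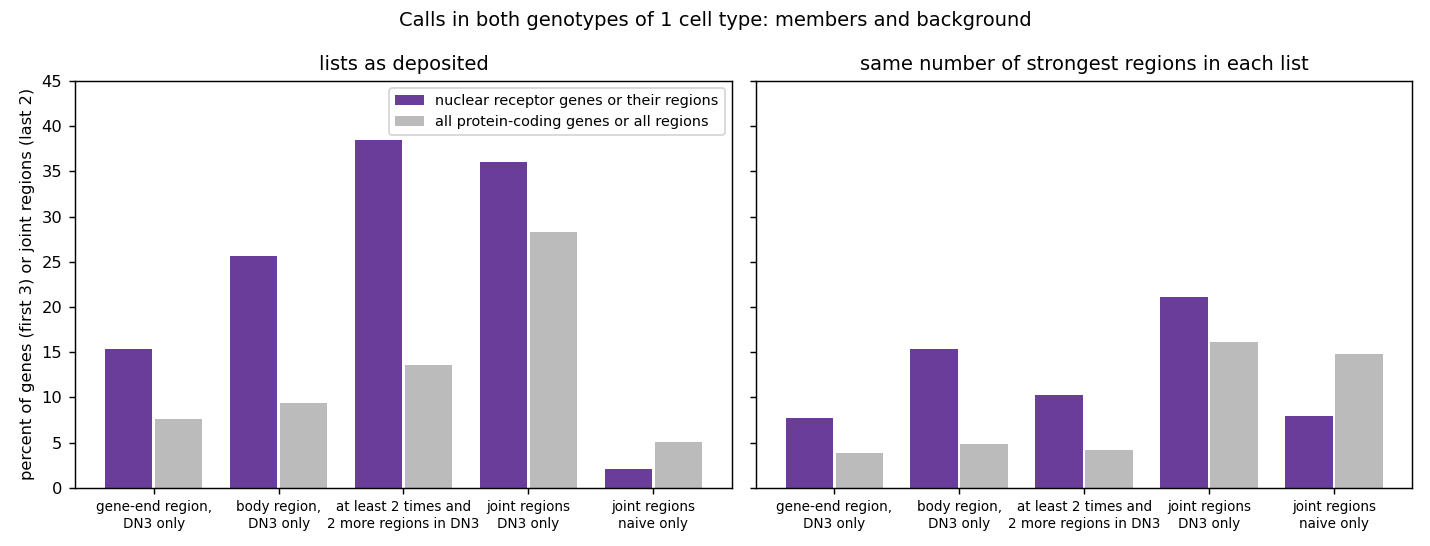
Percent of the 39 members or of their joint regions (purple) and of all protein-coding genes or all joint regions (grey) that meet each rule on the horizontal axis, for the lists as deposited on the left and for the same number of strongest regions per list on the right. The share of members with at least 2 times and 2 more regions in DN3 cells is 38.5% on the left and 10.3% on the right, against 13.6% and 4.13% of all genes. Shares are not corrected for gene length.

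The strongest DN3-only region lay inside Rxra, at chr2:27712058-27713357. Its −log10 q was 272 and 277 in Scd1-deficient and control DN3 cells and its fold 13.9 and 13.0, from 362 and 384 fragments. It stood far above the Rxra start region itself, which had 47.9 and 44.4 in DN3 cells and 74.6 and 63.2 in naive cells. Inside Thrb, chr14:17905614-17906714 had 171 and 172 in Scd1-deficient and control DN3 cells and none in naive cells. In Nr6a1, the germ cell nuclear factor, chr2:38851556-38852269 had 98.5 and 99.3, with a fold of 18.7 in each DN3 list. Close behind were regions that the naive lists held only weakly. In Esr1, chr10:4618872-4619720 had 136 and 161 in Scd1-deficient and control DN3 cells against 11.9 and 11.3 in Scd1-deficient and control naive cells. Next to Vdr, chr15:97914231-97915166 had 91.7 and 92.4 in DN3 cells and 5.91 in Scd1-deficient naive cells, with none called in control naive cells. Apart from the Rxra region, the regions of Thrb, Nr6a1, Esr1, Vdr and Pgr given here were picked with their values in view.

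The 5 naive-only regions lay near or in Rarg, Nr3c1, Thrb and Nr6a1. The strongest was in the flank of Rarg, the gamma retinoic acid receptor, at chr15:102262719-102263650, with 63.6 and 88.3 in Scd1-deficient and control naive cells. Nr3c1, the glucocorticoid receptor, had 2 inside the gene, at chr18:39499637-39500119 with 30.4 and 30.8, and at chr18:39481204-39483254 with 4.02 and 5.81. The Thrb region had 9.75 and 14.5, and the Nr6a1 region 5.91 and 5.65. Nr3c1 was open at its higher-coordinate end in all 4 lists, with 266 and 261 in DN3 cells and 180 and 319 in naive cells. Its number of regions was 8 and 10 in Scd1-deficient and control DN3 cells and 8 in each naive list.

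**Figure D5:**
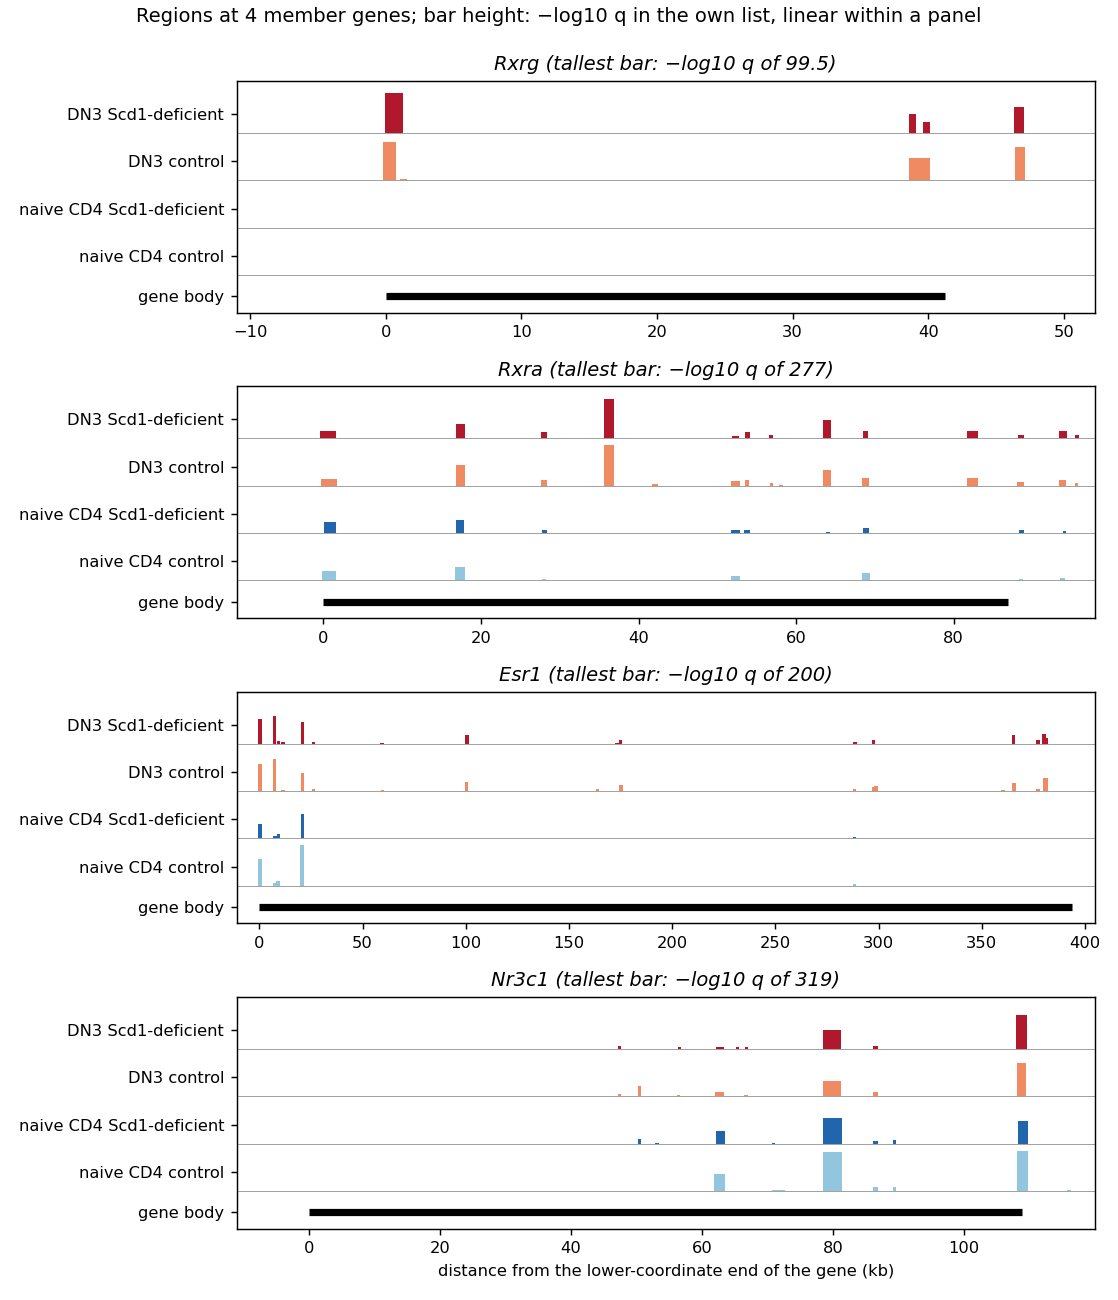
Regions of each library (rows) along Rxrg, Rxra, Esr1 and Nr3c1 (panels), against the distance in kb from the lower-coordinate end of the gene (horizontal axis), with the gene body as a black bar; bar height is −log10 q in the own list, linear within a panel up to the value in its title, and very narrow regions are widened to stay visible. Rxrg has bars in the DN3 rows alone, and the tallest bars of Rxra, of −log10 q 272 and 277, also stand in the DN3 rows alone.

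Between the genotypes few gene-end calls differed. In DN3 cells 0 members had a gene-end region in the Scd1-deficient list alone, against 0.911% of genes, and 1 in the control list alone, against 1.11%. That member was Nr1i2, the pregnane X receptor of xenobiotic metabolism, with a weak −log10 q of 4.41. In naive cells 1 member had one in the Scd1-deficient list alone, against 1.93%, and 0 in the control list alone, against 0.37%. That was Nr1h4, with 4.53 in Scd1-deficient naive cells, where Scd1-deficient and control DN3 cells had 26.4 and 33.7. No member differed 2-fold or more in gene-end fold between genotypes. Shares of genes that did were 0.0845% higher and 0.176% lower in Scd1-deficient DN3 cells, and 0.4% higher and 0.0816% lower in Scd1-deficient naive cells. The median ratio of Scd1-deficient to control fold was 1.05 in DN3 and 1.09 in naive cells over the members called in all 4 lists, and 1.02 and 1.08 over all such genes. The fold was higher in Scd1-deficient than in control cells at 19 of 29 members in DN3 cells, against 58.8% of genes, and at 19 of 22 in naive cells, against 83.3%.

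Scd1-deficient DN3 cells had more regions than control DN3 cells at 5 members, against 16.3% of genes, and fewer at 11, against 16.8%. Scd1-deficient naive cells had more than control naive cells at 15, against 20.4%, and fewer at 1, Nr3c2, against 5.66%. The 2 naive libraries also differ in recovered background and list length, and the part of these in the counts was not tested.

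Single regions differed by genotype more often, and most were weak. In the Scd1-deficient DN3 list, 15 of 211 member regions, or 7.11% (Wilson 95% interval 4.36% to 11.4%), had no counterpart in the control, against 9.48% of all regions. In the control DN3 list 30 of 223, or 13.5% (9.59% to 18.6%), had none in the Scd1-deficient list, against 10.4%. In the Scd1-deficient naive list 19 of 111, or 17.1% (11.2% to 25.2%), had none in the control, against 12.4%. In the control naive list 4 of 96, or 4.17% (1.63% to 10.2%), had none, against 5.77%. Regions of 1 library or 1 gene are not replicates. Regions without a counterpart had median −log10 q of 6.0, 5.50, 5.91 and 3.55 in these lists in the order given, against 32.1, 36.3, 74.2 and 93.9 for shared ones.

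Among the members, Thrb had the most such regions in DN3 cells, 4 in the Scd1-deficient list alone and 3 in the control alone, followed by Esr1 with 2 and 3. Vdr had 2 and 1, the orphan receptor Nr4a2 had 0 and 3, and Nr1d2 had 0 and 2, a total of 2 that Nr1i2, Nr2e1, Nr3c1, Nr4a3, Rxra, Nr2c2, Esr2 and Nr6a1 shared. In naive cells Nr3c1 had 2 in the Scd1-deficient list alone and 2 in the control alone. Rxra and Nr2f1 had 2 and 0, Nr2f6 had 1 and 1, and Nr0b2 had 1 and 0, tied with the other members that had 1 such region. The strongest in Scd1-deficient DN3 cells lay in Esr1, at chr10:4620738-4621502, with 14.3 from 78 fragments, and regions over the same place were called in both naive lists. The strongest in control DN3 cells lay in Nr3c1, with 85.1 from 121 fragments. At that same place a region was also called in Scd1-deficient naive cells, with 34.4 from 57 fragments, and none in control naive cells, so the genotype holding it was not the same in the 2 cell types. In control naive cells the strongest lay beside Nr3c1, at chr18:39526353-39526643, with 9.78 from 27 fragments.

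By role, the RXR genes, partners of many other receptors, had 25 and 26 regions in Scd1-deficient and control DN3 cells against 15 and 12 in naive cells. The thyroid hormone receptors had 25 and 24 against 12 and 10, and the retinoic acid receptors 27 and 29 against 22 and 20. Among the steroid receptors and their kin, the estrogen and estrogen-related receptors had 26 in each DN3 list against 9 in each naive list. The glucocorticoid, mineralocorticoid and progesterone receptors had 18 and 20 against 10 and 11. The COUP-TF receptors had 17 and 16 against 7 and 5. The NR4 receptors Nr4a2 and Nr4a3, orphan receptors induced by antigen receptor signals, had 9 and 14 in Scd1-deficient and control DN3 cells against 6 and 5 in Scd1-deficient and control naive cells. Over all protein-coding genes, the DN3 lists held 1.39 times the regions of the naive lists in Scd1-deficient cells and 1.53 times in control cells. Rara, Rarg, Rxrb and Nr3c1 were among 6 members with fewer regions in DN3 cells in both genotypes at equal list length.

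Genes that act with the receptors were described with 7 lists of 107 genes in all. A gene-end region was called at 88 in each DN3 list, at 82 in Scd1-deficient naive cells and at 80 in control naive cells, and 80 had one in all 4 lists. For these and the single lists below, the shares of all genes were 66.5% and 66.7% in Scd1-deficient and control DN3 cells. They were 58.6% and 57% in Scd1-deficient and control naive cells, and 56.1% in all 4 lists. Chaperones of steroid receptors, such as Hsp90aa1, had one at 12 of 12 in every list. Coactivators and corepressors had one at 24 of 24 in both DN3 lists and in Scd1-deficient naive cells, and at 23 in control naive cells, where Zbtb16 had none. Glucocorticoid targets and steroid enzymes had one at 15 of 16 in every list, clock genes at 16 of 17, and xenobiotic and bile acid genes at 3 of 12. Both DN3 lists and neither naive list held one at 6 of the 107, a lower share than the 7.57% of all genes. The reverse was found at 0, against 0.347%. Of these, 4 belonged to the 16 retinoid genes. Cyp26c1 and Cyp26a1, which break down retinoic acid, had 40.0 and 43.4, and 25.4 and 26.8, in Scd1-deficient and control DN3 cells. Aldh1a3, which makes retinoic acid, had 25.5 and 31.5, and Crabp1, which binds it in the cytoplasm, had 15.6 and 18. The others were Cyp24a1, which breaks down vitamin D, with 21.9 and 12.1, and Dio3, which inactivates thyroid hormone, with 4.1 and 4.41.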

How the data were processed

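Each library was 1 sample, grouped by its cell type and genotype labels. The submitters' processing notes name Trimmomatic, BWA, MACS2 and the build mm10. Their versions and settings, and how duplicates and the Tn5 offset were treated, were not given in the sources used here, and both can move fragment counts and region edges. The deposited lists were called per sample. In them the authors give each peak a score, a fold (a linear ratio), a −log10 p and a −log10 q, all of which grow with depth or enrichment. Fold was compared between lists as a ratio, and −log10 q values of different lists are given side by side. Neither was corrected for depth. From fold and −log10 p, whole fragments at the summit were recovered for 100% of peaks, within a tolerance of 0.05.

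Regions on chromosomes 1 to 19 and X were joined to RefSeq genes (GRCm38.p6, the same assembly as mm10), which carry no strand there, so a gene-end region lies within 1 kb of either end. A counterpart overlaps by at least 1 bp. A body region overlaps the gene and no gene-end window of it. Shares have Wilson 95% intervals. Exons and introns were not annotated here. No test was run with 1 library per group.

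The members and gene lists were chosen with earlier results of these data known. Named with values are members whose gene-end call differs between cell types or genotypes, the 6 with the largest difference in number of regions in each direction (none had fewer in DN3 cells), the 5 with the strongest gene ends by mean rank, the 5 per cell type with most regions in 1 genotype alone, members without regions, the strongest regions of 1 genotype or 1 cell type, and genes of the 7 lists whose call differs between cell types. Rarb, Esrrb, Nr2e3, Nr2f6 and the shown starts open in all lists were chosen after their values were seen. No check of region joining on simulated data is given here. The values of 1 marker gene are not reported here. Python 3.11.15, numpy 2.4.6, pandas 2.3.3, scipy 1.17.1 and matplotlib 3.10.9 were used.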

Additional observations from a re-analysis of the deposited data

Results flagged for a closer look

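The balance of member regions called in 1 genotype alone ran in opposite directions in the 2 cell types. In DN3 cells the Scd1-deficient list had 15 fewer such regions than the control (15 against 30, a difference of -15), and in naive cells 15 more (19 against 4), so that naive and DN3 differences lay 30 apart. The difference was not tested. Over all regions the counts without a counterpart were 7250 in Scd1-deficient and 7975 in control DN3 cells, and 6346 in Scd1-deficient and 2686 in control naive cells. At equal list length the member counts were 10 and 9 in Scd1-deficient and control DN3 cells, and 9 and 6 in Scd1-deficient and control naive cells, so the DN3 balance turned. Over all regions they were then 3041 and 3129 in Scd1-deficient and control DN3 cells, and 3678 and 4486 in Scd1-deficient and control naive cells, so the naive balance over all regions turned.

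The number of regions of 4 members moved in opposite directions with genotype in the 2 cell types, each untested and mostly by 1 region. Rarg and Rxrb each had 1 fewer in Scd1-deficient than control DN3 cells and 1 more in Scd1-deficient than control naive cells, a difference of 2. Nr4a2 had 3 fewer in Scd1-deficient DN3 cells and 1 more in Scd1-deficient naive cells, a difference of 4. Nr3c2 had 1 more in Scd1-deficient DN3 cells and 1 fewer in Scd1-deficient naive cells, a difference of -2.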

How the results depend on the processing

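No paired analysis was possible because the results come from no test. DN3 and naive cells were compared within each genotype. With 1 library per group, no replicate could be left out. The alternatives changed the gene-end distance, the threshold, the window, the list length, the overlap and the smallest width. Of the main counts under them and with the start in place of the gene end, 133 stayed within 1.5 times and 30 moved further. The 133 include counts of 0 that stayed 0, so they overstate how steady the other counts were. The balance of DN3 regions without counterpart turned at equal list length, to 10 in Scd1-deficient and 9 in control cells, against 15 and 30 in the full lists.

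At equal list length the DN3-only gene ends were 3, the naive-only 1, and those in 1 genotype alone 1 in Scd1-deficient and 0 in control DN3 cells (0 and 1 in the full lists) and 0 in Scd1-deficient naive cells. The members with at least 2 times the regions in DN3 were 4, the DN3-only regions 32 and the naive-only 12. Regions without counterpart were 9 in control DN3 and 9 in Scd1-deficient naive cells. With a −log10 q of at least 10, gene ends in 1 genotype alone were 1 in Scd1-deficient DN3 and 0 in Scd1-deficient naive cells, and regions without counterpart 15 in control DN3, 5 in Scd1-deficient naive and 2 in control naive cells. With at least 5, the same gene-end count in Scd1-deficient naive cells was 0, and regions without counterpart 12 and 2 in Scd1-deficient and control naive cells. Gene ends taken within 500 bp gave 1 in Scd1-deficient DN3 and 0 in Scd1-deficient naive cells. A window of 0 kb gave 12 and 2 regions without counterpart in Scd1-deficient and control naive cells, and the largest minimum width 12 in Scd1-deficient naive cells. A window of 50 kb gave 171 regions in all 4 lists, 143 DN3-only, 10 naive-only, and 29, 53, 31 and 7 without counterpart in Scd1-deficient and control DN3 and Scd1-deficient and control naive cells. A smaller list or wider window holds fewer or more regions by construction. Some counts nevertheless rose in smaller lists, as the naive-only regions did at equal list length, from 5 to 12. The cause was not tested. The start in place of the gene end was chosen after seeing the data. Depth is unknown, so a region not called is not shown to be closed.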
